A study of Mus musculus with 2 samples.

Results

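Bone morphogenetic protein (BMP) signalling was followed through 10 genes in cells of the mouse heart. They were the ligand genes Bmp4 and Bmp6, the receptor genes Bmpr2, Acvrl1 and Eng, the inhibitory Smad genes Smad6 and Smad7, and the target genes Id1, Id2 and Id3. The genes were chosen by symbol among the 22441 symbols that both count matrices list, with levels per class in these same libraries already known, and all 10 were found. Their levels and ratios below are therefore a description. BMP ligands are secreted dimers that bind a pair of serine/threonine kinase receptors, which phosphorylate Smad1, Smad5 and Smad9, and these enter the nucleus with Smad4. In endothelial cells the circulating ligands BMP9 and BMP10 signal through ALK1, the product of Acvrl1, together with the type II receptor BMPR2 and the co-receptor endoglin. The Id genes are among the most direct targets of this pathway, and Smad6 and Smad7 are targets that also restrain it.

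The study profiled cells of fresh, untreated hearts by droplet single-cell RNA sequencing on the 10x Genomics system, in 1 library per genotype. AC8 mice overexpressed adenylyl cyclase 8, an enzyme that makes cyclic AMP, and the series title places the overexpression in cardiomyocytes. Wild-type (WT) mice were their littermates, both groups were of the C57/B6 strain, and the animals of each group were pooled in numbers that the labels do not state. Leukocytes (CD45+CD31-), mesenchymal cells (CD45-CD31-) and endothelial cells (CD45-CD31+) were sorted and mixed in equal numbers, so cardiomyocytes were not among the sorted fractions, and neither the promoter of the transgene nor the age of the mice is given in the labels.

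The AC8 library held 4867 cells with 11076564 unique molecular identifiers (UMIs), and the WT library held 5800 cells with 9664932 UMIs. After filtering, 3578 AC8 cells (median 2321 UMIs) and 3546 WT cells (median 1886.5 UMIs) remained. They formed 18 clusters, which were named from marker genes as 10 classes. The sorting antigens lay where the classes place them, with Pecam1 (CD31) at 1157 CPM (UMIs of a gene per 1000000 summed UMIs of a class) in AC8 and 1121 CPM in WT endothelial-like cells, and Ptprc (CD45) at 12.3 CPM in AC8 and 10.8 CPM in WT endothelial-like cells. The cluster called NK cell-like had 2 neutrophil markers, S100a9 and Retnlg, among its 10 leading genes, and the cluster called monocyte-like had S100a8 and S100a9, beside Camp and Ngp, which are granule genes of neutrophil precursors. The 8 neutrophil markers summed to 7268 CPM in AC8 and 4182 CPM in WT NK cell-like cells, where the NK markers summed to 6650 CPM in AC8 and 5579 CPM in WT. In monocyte-like cells the neutrophil markers summed to 582 CPM in AC8 and 14515 CPM in WT, and the monocyte markers to 2680.1 CPM in AC8 and 4307 CPM in WT, so the 2 libraries hold unlike mixtures there. In dendritic cell-like cells the macrophage markers summed to 5838 CPM in AC8 and 5655 CPM in WT, and the dendritic cell markers to 2594 CPM in AC8 and 2319 CPM in WT. The macrophage markers summed to 17610 CPM in AC8 and 16566 CPM in WT macrophage-like cells. Since each genotype has 1 pooled library, no replicate stands behind any difference and no test was made. Intervals in brackets are exact at 95% for the counting of UMIs alone, and variation among cells, mice and preparations is outside them. Because a class level is a sum over cells, fewer expressing cells and less RNA per cell cannot be told apart from it.

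The clearest patterns lay in endothelial-like cells, 569 in AC8 and 621 in WT. Id1 stood at 474 CPM in AC8 and at 906 CPM in WT, a ratio of 0.523 (0.464 to 0.588), while its relative Id3 stood at 2509 CPM in AC8 and 1833 CPM in WT, a ratio of 1.37 (1.28 to 1.46). Smad6 had 105 CPM in AC8 and 48.6 CPM in WT, and Eng had 1618 CPM in AC8 and 1061 CPM in WT. A level was called higher or lower where the ratio, with 10 CPM added to both sides, passed 1.5-fold and the gene had at least 30 summed UMIs. By that rule 2 of the 9 members with enough UMIs were higher in AC8 endothelial-like cells (Smad6 and Eng) and 1 was lower (Id1), where 4.33% of all 7327 genes tested were higher, 5.49% were lower and 9.81% were either. In fibroblast-like cells 1 of 10 was higher (Smad6, against 0.79% of 10634 genes) and 0 were lower (2.89% of genes, 3.68% in either direction). In macrophage-like cells 1 of 7 was higher (Id3, against 5.77% of 8469 genes) and 1 was lower (Id1, against 6.6%, and 12.4% in either direction). In B cell-like cells 0 of 2 were called in either direction, where 9.38% of 2858 genes were higher, 11.7% lower and 21.1% either. The genes were chosen with these libraries' results known, so the shares over all genes are given as background and nothing is read from the counts.

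The median log2 ratio of the members tested was 0.08 in endothelial-like, -0.18 in fibroblast-like, -0.09 in macrophage-like and 0.08 in B cell-like cells. Over all genes it was -0.02, -0.05, -0.02 and -0.02 in the same order of classes. The 10 genes did not share 1 direction. In endothelial-like cells the interval of the ratio lay above 1 for 3 members and below 1 for 2, where it lay above 1 for 8.99%, below 1 for 9.92% and on either side for 18.9% of all genes tested. In fibroblast-like cells it lay above 1 for 2 members and below 1 for 5, where it did so for 14.4%, 23.6% and, on either side, 38.0% of all genes. In macrophage-like cells it lay above 1 for 2 members and below 1 for 2, where it did so for 15%, 17.6% and, on either side, 32.6% of genes. In B cell-like cells it excluded 1 for 0 of 2 members, where it lay above 1 for 6.16%, below 1 for 7.66% and on either side for 13.8% of genes.

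**Figure D1:**
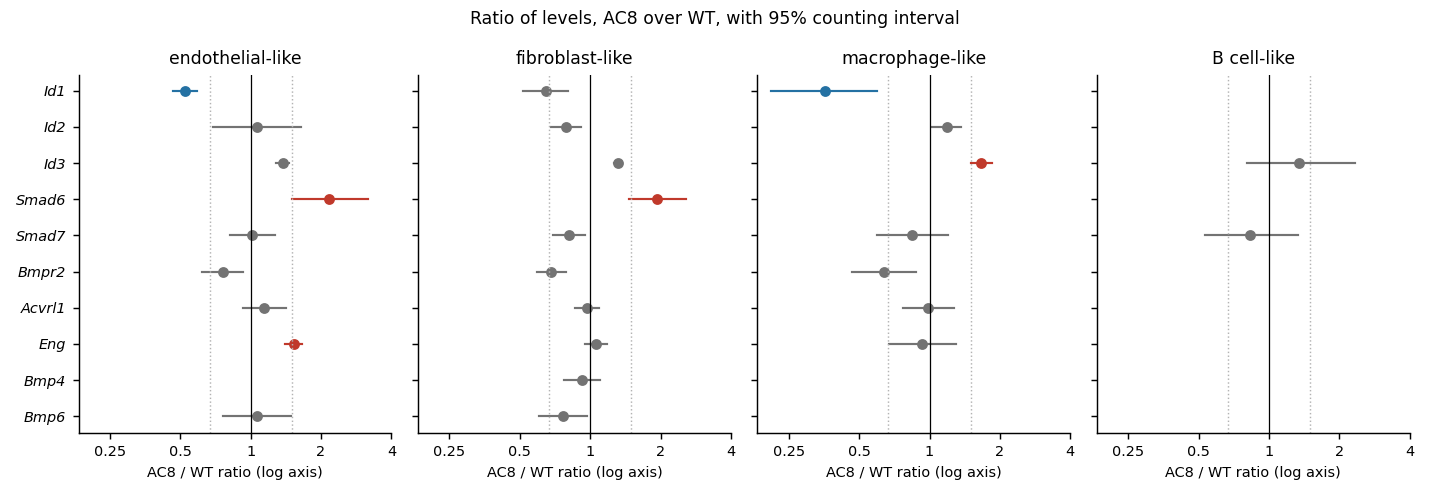
Ratio of the summed level in AC8 over that in WT for each gene with at least 30 UMIs (x axis, log scale) in the 4 classes with at least 100 cells per library. Points are ratios, lines are 95% counting intervals, dotted lines mark 1.5-fold, and red and blue mark genes called higher and lower in AC8. Id1 lies left of 1 in the 3 classes where it had enough UMIs and Id3 lies right of 1 in all 4.

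Smad6 and Eng, the genes called higher in AC8 endothelial-like cells, are shown with the 250 bases upstream of their RefSeq start on GRCm38.p6, because binding sites of the pathway's own Smads are known from promoters of its targets. The windows are chr9:64022060-64022309 (minus strand) for Smad6 and chr2:32646345-32646594 (plus strand) for Eng, and neither overlaps an exon of GENCODE vM21. Capitals mark GGCGCC or GGAGCC, motifs described for BMP Smads, and CAGAC, a motif described for Smad4, on either strand.
Smad6: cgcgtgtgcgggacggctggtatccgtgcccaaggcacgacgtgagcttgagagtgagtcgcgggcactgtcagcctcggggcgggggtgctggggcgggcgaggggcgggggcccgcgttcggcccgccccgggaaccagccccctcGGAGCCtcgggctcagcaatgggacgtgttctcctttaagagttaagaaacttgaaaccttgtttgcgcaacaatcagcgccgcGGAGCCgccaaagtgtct
Eng: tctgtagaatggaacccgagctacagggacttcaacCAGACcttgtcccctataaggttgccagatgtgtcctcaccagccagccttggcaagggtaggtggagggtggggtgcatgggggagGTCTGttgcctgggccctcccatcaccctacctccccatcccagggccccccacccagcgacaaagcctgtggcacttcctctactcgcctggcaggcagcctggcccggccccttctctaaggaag
Smad6 held 2 matches to GGAGCC, beginning 102 and 18 bases before the start, and Eng held 2 matches to CAGAC, beginning 214 and 127 bases before it, the nearer of them on the opposite strand. The table of RefSeq promoters matched 7 of the 10 genes. Among those 7 windows GGAGCC was found in 4, CAGAC in 3 and GGCGCC in 2. The E-box CANNTG, bound by the partners of Id proteins, was found in 4. Of all 32851 windows of the same length, 26.0% held GGAGCC, 42.2% CAGAC, 9.59% GGCGCC and 66.2% CANNTG on either strand. The motifs do not overlap each other in the printed windows, and a match is a run of letters, not a shown binding site.

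**Figure D2:**
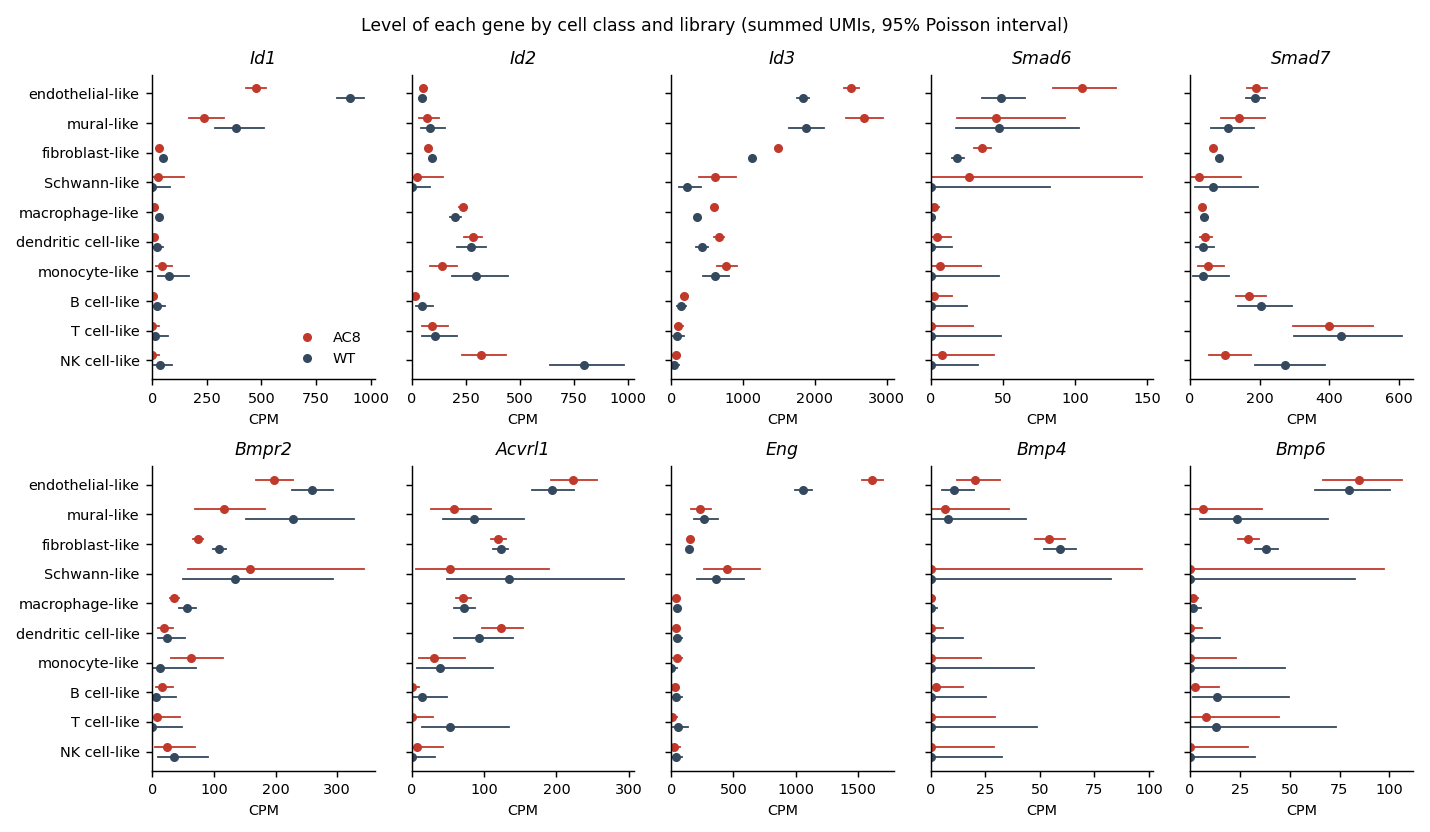
Level of each of the 10 genes (x axis, CPM on a linear scale starting at 0) in the 10 cell classes. Points are sums over the cells of a class in AC8 (red, upper) and WT (dark, lower), and lines are 95% Poisson intervals. Id1, Eng and Bmp6 peak in endothelial-like cells, Bmp4 in fibroblast-like cells, Id2 in NK cell-like cells and Smad7 in T cell-like cells.

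The ligand genes were low and came from different cells. Bmp4, which encodes a ligand that signals through BMPR1 receptors (chromosome 14, 46383520 to 46390669, minus strand, GRCm38), stood at 54.4 CPM in AC8 (47.7 to 61.8) and 59.1 CPM in WT fibroblast-like cells (52.1 to 66.7). That was the highest class in both libraries, apart from endothelial-like cells, the next, and the ratio was 0.921 (0.770 to 1.10). Endothelial-like cells held 18 UMIs of Bmp4 in AC8 and 10 in WT, and dendritic cell-like, monocyte-like, T cell-like, NK cell-like and Schwann-like cells held 0 in both libraries. Bmp6, a ligand known from the liver for its control of iron balance (chromosome 13, 38345107 to 38500302, plus strand), was highest in endothelial-like cells, at 84.9 CPM in AC8 (66.9 to 106) and 79.8 CPM in WT (62.7 to 100), intervals that overlapped. In fibroblast-like cells Bmp6 stood at 29.0 CPM in AC8 and 37.9 CPM in WT, a ratio of 0.765 (0.603 to 0.969).

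Within the fibroblast-like class both ligand genes were unevenly spread. Bmp4 was highest in the cluster led within the class by Cxcl14, at 129 CPM in AC8 and 90.4 CPM in WT, which held 168 of 1538 AC8 and 751 of 1906 WT fibroblast-like cells. In the cluster led by Hp and Osr1, with 653 AC8 and 345 WT cells, Bmp4 stood at 53.7 CPM in AC8 and 31.9 CPM in WT, a ratio of 1.68 (1.09 to 2.69). The ratio in the Cxcl14 cluster was 1.43 (1.01 to 1.98). These ratios depended on where the clusters were drawn: with the 10 genes and the pathway lists left out of the clustering, 475 of 998 cells of the Hp cluster and 629 of 919 of the Cxcl14 cluster fell into 1 cluster, where Bmp4 had 74.4 CPM in AC8 and 84.1 CPM in WT, a ratio of 0.884 (0.672 to 1.16). Bmp6 had only 2 UMIs in AC8 and 5 in WT in the cluster led by Igfbp3 and Cytl1, the fibroblast-like cluster with the highest Id3 and Smad6.

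Among the receptors, Eng was the member with the sharpest endothelial pattern. Eng encodes endoglin, a co-receptor of ALK1 (chromosome 2, 32646595 to 32682669, plus strand), and it stood at 1618 CPM in AC8 (1536 to 1704) and 1061 CPM in WT endothelial-like cells (995 to 1129). Its ratio there was 1.53 (1.41 to 1.66), and the 2 intervals did not overlap. The call passed by little, at a log2 ratio of 0.60, and ended at 0.43 among cells with at least 2000 UMIs and 1000 genes, where Eng had 1293 CPM in AC8 and 958 CPM in WT. Schwann-like cells came next, with 447 CPM in AC8 (261 to 716) and 359 CPM in WT (205 to 582), from 17 and 16 UMIs. In fibroblast-like cells Eng stood at 153 CPM in AC8 and 145 CPM in WT, and in macrophage-like cells at 41.2 CPM in AC8 and 44.3 CPM in WT, with ratios of 1.06 (0.950 to 1.18) and 0.929 (0.671 to 1.30). Thinned to 1000 UMIs each, 73.5% of AC8 and 59.3% of WT endothelial-like cells had a UMI of Eng. The share without thinning was 83.1% in AC8 and 70.9% in WT. In B cell-like cells, which should lack it, 2.72% in AC8 and 2.78% in WT had one after thinning. Median depths were 1376 UMIs in AC8 and 1318 UMIs in WT endothelial-like cells, and 1169.5 UMIs in AC8 and 1213.5 UMIs in WT B cell-like cells. Eng overlaps Fpgs, a gene on the opposite strand, as Acvrl1, Bmp4 and Bmp6 also overlap genes of the opposite strand, and whether strand was used in counting is not stated in the labels.

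Bmpr2, the type II receptor whose loss-of-function alleles cause heritable pulmonary arterial hypertension in humans (chromosome 1, 59763400 to 59879014, plus strand), ran the other way. It stood at 197 CPM in AC8 (169 to 228) and 259 CPM in WT endothelial-like cells (227 to 294), a ratio of 0.760 (0.622 to 0.927). In fibroblast-like cells it had 74.4 CPM in AC8 and 109 CPM in WT, a ratio of 0.683 (0.592 to 0.788), and in macrophage-like cells 35.8 CPM in AC8 and 56.1 CPM in WT, a ratio of 0.638 (0.467 to 0.875). In mural-like cells, 75 in AC8 and 68 in WT, it had 116 CPM in AC8 and 228 CPM in WT, a ratio of 0.507 (0.265 to 0.945). All 4 intervals lay below 1, but with 10 CPM added none of those in the 3 larger classes passed 1.5-fold. Within the endothelial-like and fibroblast-like classes Bmpr2 was highest in small clusters that share Nfat5 among their leading genes. The fibroblast-like one had 312 CPM in AC8 and 532 CPM in WT, and the endothelial-like one, led also by Hsph1 and Pcf11, 689 CPM in AC8 and 808 CPM in WT. Among cells with no UMI of Fos, an immediate-early gene, Bmpr2 stood at 114 CPM in AC8 and 64.0 CPM in WT fibroblast-like cells (46 UMIs in all). In such endothelial-like cells it stood at 250 CPM in AC8 and 237 CPM in WT, so the lower level in AC8 was not seen in these few cells. They numbered 123 in AC8 and 111 in WT among fibroblast-like, and 136 in AC8 and 149 in WT among endothelial-like cells.

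Acvrl1, which encodes ALK1 (chromosome 15, 101128522 to 101145336, plus strand), was highest in endothelial-like cells, at 222 CPM in AC8 (193 to 256) and 194 CPM in WT (167 to 225), a ratio of 1.15 (0.931 to 1.41). It was not confined to them in these data. Fibroblast-like cells had 119 CPM in AC8 and 123 CPM in WT, dendritic cell-like cells 123 CPM in AC8 and 93.2 CPM in WT, and macrophage-like cells 70.9 CPM in AC8 and 71.7 CPM in WT. The ratio in these 3 classes was 0.970 (0.859 to 1.10), 1.32 (0.820 to 2.20) and 0.990 (0.770 to 1.28). In B cell-like cells Acvrl1 had 0 UMIs in AC8, which allows up to 7.89 CPM, and 2 UMIs in WT. Markers of endothelial cells summed to 130 CPM in AC8 and 176 CPM in WT macrophage-like cells, against 13419.5 CPM in AC8 and 12000.1 CPM in WT endothelial-like cells.

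Of the inhibitory Smads, Smad6, which blocks BMP receptors and Smad1 (chromosome 9, 63953076 to 64022059, minus strand), was called higher in both classes where it had enough UMIs. Endothelial-like cells held 94 UMIs in AC8 (105 CPM, 84.9 to 129) and 45 UMIs in WT (48.6 CPM, 35.4 to 65.0), a ratio of 2.16 (1.501 to 3.16). Fibroblast-like cells held 157 UMIs in AC8 (35.6 CPM, 30.2 to 41.6) and 81 UMIs in WT (18.4 CPM, 14.6 to 22.9), a ratio of 1.93 (1.47 to 2.56). In neither class did the intervals of the 2 levels overlap. In mural-like cells the levels were 45.02 CPM in AC8 and 47.2 CPM in WT, from 7 and 6 UMIs, and the ratio of 0.953 (0.274 to 3.43) is too wide to place. Macrophage-like cells had 7 UMIs in AC8 and 0 in WT, and T cell-like cells 0 in both. At 1000 UMIs per cell, 8.79% of AC8 and 5.15% of WT endothelial-like cells had a UMI of Smad6, against 0.34% of AC8 and 0 of 108 WT B cell-like cells. The shares without thinning were 14.1% in AC8 and 6.76% in WT endothelial-like cells, and 0.34% in AC8 B cell-like cells.

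Smad6 was concentrated in part of each class. Among fibroblast-like cells it was high in the cluster led within the class by Igfbp3, Cytl1, Ecrg4 and Wif1, where it was itself a leading gene, with 161 CPM in AC8 and 74.2 CPM in WT, a ratio of 2.18 (1.52 to 3.15). That cluster held 245 AC8 and 274 WT cells, 15.9% and 14.4% of the class, and 103 of the 157 AC8 and 46 of the 81 WT UMIs. In the cluster led by Cilp and Cd248 the levels were 24.4 CPM in AC8 and 12.9 CPM in WT, and in those led by Hp and by Cxcl14 at most 9.20 CPM in AC8 and 8.59 CPM in WT. When the cells were clustered with the 10 genes and the pathway lists left out, 503 of the 519 cells of the Igfbp3 cluster fell into 1 larger cluster of 402 AC8 and 519 WT cells. Smad6 stood there at 102 CPM in AC8 and 41.6 CPM in WT, a ratio of 2.45 (1.74 to 3.49).

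Smad7, which blocks both BMP and TGF-beta receptors, had no call in the classes where Smad6 was called. Endothelial-like cells had 190.0 CPM in AC8 (163 to 221) and 187 CPM in WT (160 to 217), a ratio of 1.02 (0.819 to 1.27). The highest class was T cell-like cells, with 398 CPM in AC8 (296 to 525) and 434 CPM in WT (299 to 610). In fibroblast-like cells the ratio was 0.815 (0.697 to 0.954), with 66.9 CPM in AC8 and 82.0 CPM in WT. By cluster, Smad7 had 36.8 CPM in AC8 and 82.2 CPM in WT in the one led by Hp and Osr1, a ratio of 0.447 (0.316 to 0.634), and 36.1 CPM in AC8 and 56.2 CPM in WT in the one led by Cxcl14, a ratio of 0.643 (0.337 to 1.14). In the cluster that joined parts of both when the 10 genes and the pathway lists were left out, it had 26.2 CPM in AC8 and 52.6 CPM in WT, a ratio of 0.499 (0.326 to 0.753). The Igfbp3 cluster had 172 CPM in AC8 and 176 CPM in WT.

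The 3 Id genes encode helix-loop-helix proteins without a DNA-binding part, which hold E proteins such as Tcf3, Tcf4 and Tcf12 off their E-boxes. Id1 (chromosome 2, 152736251 to 152737410, plus strand) was the most endothelial of them. Its 474 CPM in AC8 (430 to 521) and 906 CPM in WT endothelial-like cells (846 to 970) came from 424 and 840 UMIs, and the intervals lay far apart. Mural-like cells came next and stood apart from both neighbours in both libraries, with 238 CPM in AC8 (168 to 328) and 386 CPM in WT (285 to 510), a ratio of 0.617 (0.391 to 0.965). A mural-like sub-cluster with endothelial genes, of 9 AC8 and 15 WT cells, carried part of this, and without it the levels were 222 CPM in AC8 (148 to 321) and 269 CPM in WT (172 to 400), which overlapped. Fibroblast-like cells had 30.6 CPM in AC8 and 47.5 CPM in WT, a ratio of 0.644 (0.515 to 0.804). Macrophage-like cells had 10.3 CPM in AC8 and 28.8 CPM in WT, from 27 and 39 UMIs, a ratio of 0.357 (0.210 to 0.599). B cell-like cells had 5.26 CPM in AC8 (0.637 to 19.0) and 20.5 CPM in WT (4.23 to 60.0), from 2 and 3 UMIs. With so few UMIs, whether the macrophage-like levels stood above them cannot be told. Endothelial markers were lower in AC8 in both classes too. They summed to 130 CPM in AC8 and 176 CPM in WT macrophage-like cells. In B cell-like cells they summed to 189 CPM in AC8 and 711 CPM in WT. Their part in the macrophage-like ratio was not tested, and at 1000 UMIs per cell the levels there were 13.9 CPM in AC8 and 18.9 CPM in WT, which is no longer past 1.5-fold.

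Id1 was detected in a smaller share of AC8 endothelial-like cells, which a lower level in every cell would also give. At 1000 UMIs per cell, 33.2% of AC8 and 52.3% of WT endothelial-like cells had a UMI of it, against 0.68% of AC8 and 1.85% of WT B cell-like cells. Without thinning the shares were 45.9% in AC8 and 61.4% in WT endothelial-like cells, and 0.68% in AC8 and 2.78% in WT B cell-like cells. Of the immediate-early genes, which respond to handling, Fos stood at 4533 CPM in AC8 and 4272 CPM in WT endothelial-like cells, and Egr1 at 2558 CPM in AC8 and 2585 CPM in WT of the same class. Of 27 stress genes tested there, 6 were called higher in AC8 (Junb, Ier2, Ier3, Nr4a1, Socs3 and Cebpd) and 1 lower (Ier5), named because they were called. The median log2 ratio of the 27 was 0.12, where 4.33% of all genes were higher and 5.49% lower. In fibroblast-like cells 0 of 28 were called higher and 7 lower (2.89% of all genes were lower), with a median of -0.30, and in macrophage-like cells 0 of 28 were higher and 8 lower (6.6% of all genes were lower), with a median of -0.27. Their part in the Id1 values of these classes was not tested.

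Id3 (chromosome 4, 136143497 to 136145755, plus strand) was higher in AC8 in each of the 10 classes by the plain ratio, while Id1 was lower in 9 of 10. The interval of the Id1 ratio excluded 1 in endothelial-like, mural-like, fibroblast-like and macrophage-like cells, and in each of the other 6 classes Id1 had at most 7 UMIs in either library. Mural-like cells had 2682 CPM in AC8 (2431 to 2952) and 1873 CPM in WT (1643 to 2127), and endothelial-like cells 2509 CPM in AC8 (2406 to 2615) and 1833 CPM in WT (1747 to 1923). These 2 classes did not stand apart from each other in either library, and both stood above fibroblast-like cells, at 1483 CPM in AC8 (1447 to 1519) and 1129.8 CPM in WT (1099 to 1162). Monocyte-like cells, whose neutrophil markers differed as given above, had 764 CPM in AC8 and 604 CPM in WT. Dendritic cell-like cells, which also held macrophage markers as given above, had 664 CPM in AC8 and 426 CPM in WT. Macrophage-like cells had 600.0 CPM in AC8 and 361 CPM in WT. The ratio was 1.43 (1.22 to 1.69) in mural-like, 1.31 (1.26 to 1.36) in fibroblast-like, 1.56 (1.26 to 1.95) in dendritic cell-like and 1.66 (1.4999 to 1.84) in macrophage-like cells. In dendritic cell-like cells the 10 richest cells held 53.9% of the Id3 UMIs in AC8 and 82.9% in WT. The 10 richest mural-like cells held 44.1% in AC8 and 56.3% in WT, and the macrophage-like ones 19.0% and 31.1%. Counting intervals leave out such unevenness among cells and are too narrow there. For NK cell-like, T cell-like, B cell-like and monocyte-like cells the interval of the ratio included 1.

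The libraries filled the fibroblast-like clusters unequally, and the Id3 ratio differed among them. Within clusters the ratio was 1.07 (0.992 to 1.15) in the one led by Hp and Osr1, 0.927 (0.817 to 1.05) in the one led by Cxcl14, 1.26 (1.17 to 1.36) in the one led by Cilp, 1.43 (1.34 to 1.54) in the one led by Igfbp3, and 1.48 (1.12 to 1.96) in the small one with Jmjd1c and Nfat5. The clusters led by Hp and by Cxcl14 held 42.5% and 10.9% of AC8 fibroblast-like cells, against 18.1% and 39.4% of WT ones. In the cluster that took up most of the Cxcl14 cells and many of the Hp cells when the 10 genes and the pathway lists were left out, Id3 had 1379 CPM in AC8 and 981 CPM in WT, a ratio of 1.41 (1.31 to 1.51). The Igfbp3 cluster had the highest Id3 of the fibroblast-like clusters, at 3098 CPM in AC8 and 2162 CPM in WT, and its Id1 was 53.3 CPM in AC8 and 111 CPM in WT, a ratio of 0.479 (0.308 to 0.732).

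In macrophage-like cells the Id3 call rested on 1 cluster. The cluster led within the class by S100a8, S100a9, the hemoglobin genes Hbb-bs and Hba-a1, H2-Eb1 and H2-Ab1 held 215 AC8 and 315 WT cells. Against the other classes its leading genes were C1qc, C1qa and C1qb. Over all macrophage-like cells the neutrophil markers summed to 118 CPM in AC8 and 428 CPM in WT. The erythroid markers, mostly hemoglobin genes, summed to 5.34 CPM in AC8 and 184 CPM in WT. Their part in the Id3 values was not tested. In the S100a8 cluster Id3 stood at 1262 CPM in AC8 and 274 CPM in WT, a ratio of 4.61 (3.91 to 5.45). The cluster led by Lyve1 and Folr2, with 361 AC8 and 259 WT cells, had 442 CPM in AC8 and 459 CPM in WT, a ratio of 0.964 (0.835 to 1.11). Without the S100a8 cluster the class had 409 CPM in AC8 and 445 CPM in WT, a ratio of 0.919 (0.805 to 1.05). The Id3 UMIs of the S100a8 cluster were gathered in few cells: 46 of 215 AC8 and 12 of 315 WT cells held 5 or more. The 10 richest cells held 38.2% of the UMIs in AC8 and 39.6% in WT. Median depths were 3219 UMIs in AC8 and 2003 UMIs in WT macrophage-like cells. Without thinning, a cutoff of 5 UMIs is passed more easily by the deeper AC8 cells. With cells thinned to equal depth, 33.0% of AC8 and 15.2% of WT cells of this cluster had a UMI of Id3. In the Lyve1 cluster these shares were 19.1% in AC8 and 18.1% in WT. Over the whole class, also without thinning, 100 of 717 AC8 and 33 of 581 WT cells held at least 5 Id3 UMIs. In these cells Cd207, which encodes langerin, stood at 547 CPM in AC8 and 839 CPM in WT, against 27.0 CPM in AC8 and 32.7 CPM in WT among the other macrophage-like cells. Vsig4, a complement receptor of tissue macrophages, stood at 300 CPM in AC8 and 790 CPM in WT, against 67.4 CPM in AC8 and 40.7 CPM in WT in the others. Cd207 and Vsig4 were named after their values were seen. With the members left out of the clustering, 527 of the 530 cells of the S100a8 cluster fell into a cluster of 329 AC8 and 394 WT cells, with Id3 at 885 CPM in AC8 and 319 CPM in WT, a ratio of 2.78 (2.42 to 3.20).

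**Figure D3:**
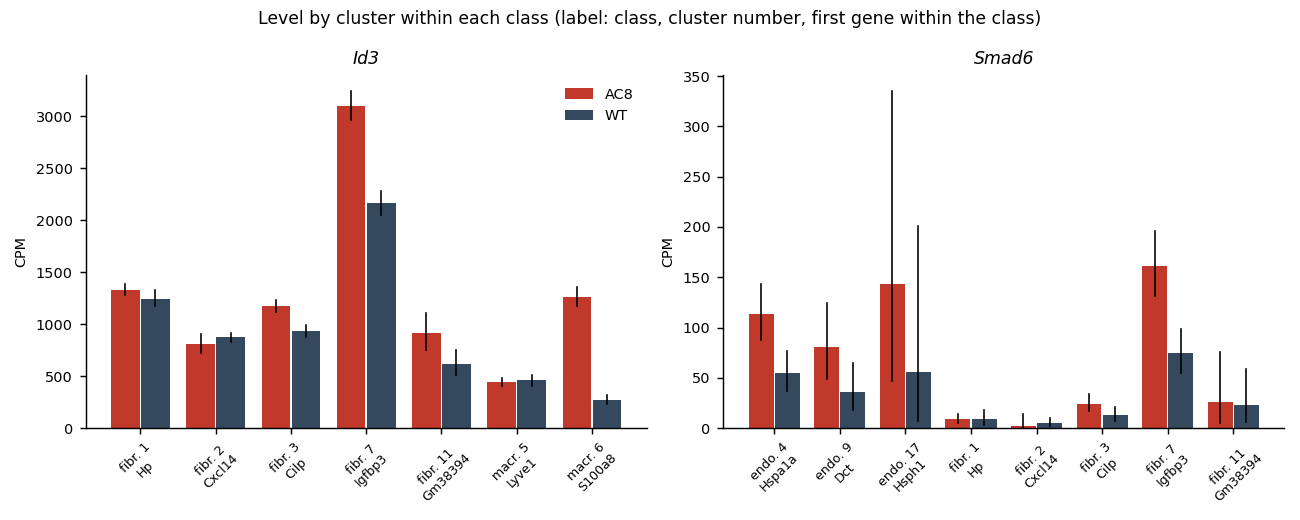
Levels in CPM (y axis, from 0) of Id3 in fibroblast-like and macrophage-like clusters and of Smad6 in endothelial-like and fibroblast-like clusters with at least 20 cells in each library. Bars are sums over cells in AC8 (red, left) and WT (dark, right) and lines are 95% Poisson intervals. The fibroblast-like cluster led by Igfbp3 is the highest for both genes in its class, and Id3 reaches 1262 CPM in AC8 against 274 CPM in WT in the macrophage-like cluster led by S100a8.

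The opposite differences of Id1 and Id3 are clearest as a ratio within a class, which does not depend on how the library total is scaled. Endothelial-like cells had 18.9 Id1 UMIs per 100 Id3 UMIs in AC8 (17.0 to 21.0) and 49.4 in WT (45.5 to 53.7). Mural-like cells had 8.87 in AC8 (6.16 to 12.4) and 20.6 in WT (14.8 to 28.1), fibroblast-like cells 2.06 in AC8 (1.73 to 2.45) and 4.20 in WT (3.64 to 4.83), and macrophage-like cells 1.72 in AC8 (1.13 to 2.51) and 7.98 in WT (5.60 to 11.1). In these 4 classes the intervals of the libraries did not overlap. In dendritic cell-like cells they did, at 1.19 in AC8 (0.384 to 2.79) and 4.76 in WT (1.51 to 11.5). The fibroblast-like Id1 ratio was 0.909 (0.538 to 1.58) in the Hp cluster and 0.771 (0.364 to 1.48) in the Cxcl14 cluster. In the Cilp cluster it was 0.711 (0.457 to 1.10), and only in the Igfbp3 cluster did its interval lie below 1. In macrophage-like cells Id1 was low, and the B cell-like level that could be set beside it rests on 2 UMIs in AC8 and 3 in WT. The S100a8 cluster held 9 Id1 and 741 Id3 UMIs in AC8 and 26 and 182 in WT. The Lyve1 cluster held 9 and 539 in AC8 and 12 and 299 in WT.

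**Figure D4:**
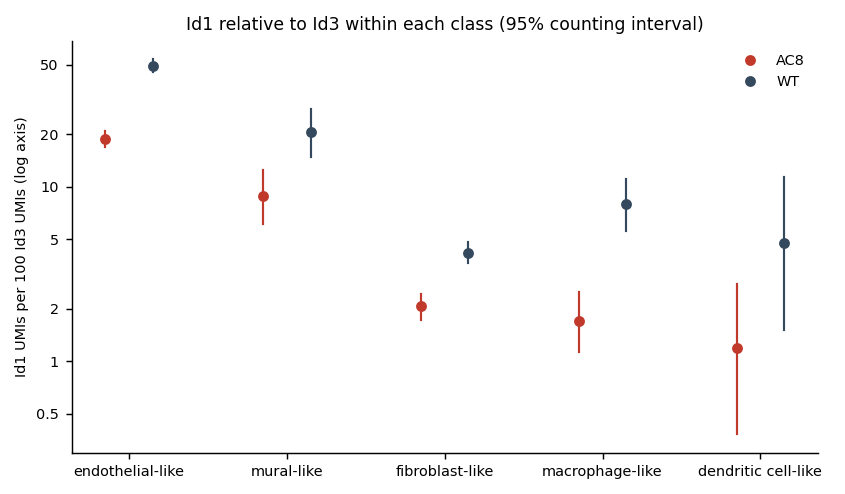
Number of Id1 UMIs per 100 Id3 UMIs (y axis, log scale) in 5 cell classes. Points are sums over the cells of a class in AC8 (red, left) and WT (dark, right), and lines are 95% counting intervals. The AC8 value lies below the WT value in each class shown, for example at 18.9 in AC8 and 49.4 in WT endothelial-like cells. The macrophage-like values, 1.72 in AC8 and 7.98 in WT, rest on 27 and 39 Id1 UMIs.

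Id2 (chromosome 12, 25093799 to 25097140, minus strand), needed for the development of NK cells, had its highest level in a leukocyte class. NK cell-like cells, 64 in AC8 and 68 in WT, had 321 CPM in AC8 (230 to 435) and 796 CPM in WT (640 to 978), from 41 and 90 UMIs. Neutrophil markers differed between the libraries in this class, at 7268 CPM in AC8 and 4182 CPM in WT, and their part in the Id2 values was not tested. In WT it stood apart from the next class, and in AC8 it did not, since dendritic cell-like cells had 281 CPM (241 to 325) there. Macrophage-like cells had 237 CPM in AC8 and 200.2 CPM in WT, a ratio of 1.18 (1.02 to 1.37), and fibroblast-like cells 73.7 CPM in AC8 and 93.4 CPM in WT, a ratio of 0.789 (0.680 to 0.915). In both macrophage-like clusters that could be compared the interval of the ratio included 1. The ratio was 1.16 (0.917 to 1.48) in the Lyve1 cluster and 1.02 (0.804 to 1.30) in the S100a8 cluster. The cluster led by Gpnmb and Spp1, with 141 AC8 and 7 WT cells, was too small in WT to compare. With the members left out of the clustering, 144 of its 148 cells fell into a cluster of 143 AC8 and 7 WT cells. Id2 stood there at 320 CPM in AC8, from 265 UMIs, and 508 CPM in WT, from 19 UMIs. The part of this cluster in the class ratio was not tested. Endothelial-like cells, the main source of Id1, had 51.4 CPM of Id2 in AC8 and 48.6 CPM in WT, with overlapping intervals.

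The endothelial-like class was split further, with the 10 genes and the pathway lists left out of the variable genes. Sub-cluster 1 was capillary-like (204 AC8 and 234 WT cells, with Car4 and Rgcc), sub-cluster 3 arterial-like (164 AC8 and 117 WT cells, with Gja4, Gja5 and Sema3g) and sub-cluster 6 endocardial-like (17 cells in each library, with Npr3). Sub-cluster 2, led by the hemoglobin gene Hbb-bs, had capillary markers at levels near those of sub-cluster 1 over both libraries, with Gpihbp1 at 1944 CPM against 1640.0 CPM and Cd36 at 3808 CPM against 3168 CPM. It, sub-cluster 4, led by H2ac8 and Apln, and sub-cluster 5, led by Vcam1 and Igfbp5, stayed unnamed. Id1 was lower in AC8 in each of the 5 sub-clusters large enough to compare: 618 CPM in AC8 and 1237 CPM in WT in the capillary-like one, a ratio of 0.4997 (0.418 to 0.595), and 523 CPM in AC8 and 1169.9 CPM in WT in the arterial-like one, a ratio of 0.447 (0.361 to 0.552). In sub-clusters 2, 4 and 5 the ratios were 0.569, 0.532 and 0.677, and the interval included 1 in sub-clusters 4 and 5.

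The other members differed between sub-clusters. Smad6 was highest in the arterial-like sub-cluster, at 189 CPM in AC8 and 89.2 CPM in WT, a ratio of 2.12 (1.21 to 3.91), and the capillary-like one had 16 UMIs in AC8 and 12 in WT. Id3 had a ratio of 1.59 (1.40 to 1.81) in arterial-like, 1.30 (1.18 to 1.44) in capillary-like and 1.10 (0.949 to 1.28) in Hbb-bs cells. Eng had 1597 CPM in AC8 and 945 CPM in WT capillary-like cells, a ratio of 1.69 (1.46 to 1.95), and 1799 CPM in AC8 and 1301 CPM in WT arterial-like cells, a ratio of 1.38 (1.19 to 1.62). In the Apln sub-cluster Eng had 467 CPM in AC8 and 505 CPM in WT. Bmpr2 had a ratio of 0.5996 (0.396 to 0.896) in capillary-like and 0.599 (0.415 to 0.861) in arterial-like cells and 1.06 (0.672 to 1.66) in Hbb-bs cells, and its highest level was in the Vcam1 sub-cluster, at 649 CPM in AC8 and 742 CPM in WT. Bmp6 was low in the arterial-like sub-cluster, where Smad6 was highest, with 42.1 CPM in AC8 and 36.7 CPM in WT arterial-like cells, from 12 and 7 UMIs, and 109 CPM in AC8 and 82.5 CPM in WT capillary-like cells. Hemoglobin transcripts, which mark free RNA of red cells, stood at 706 CPM in AC8 and 2490.4 CPM in WT endothelial-like cells, and their part in these values was not tested.

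**Figure D5:**
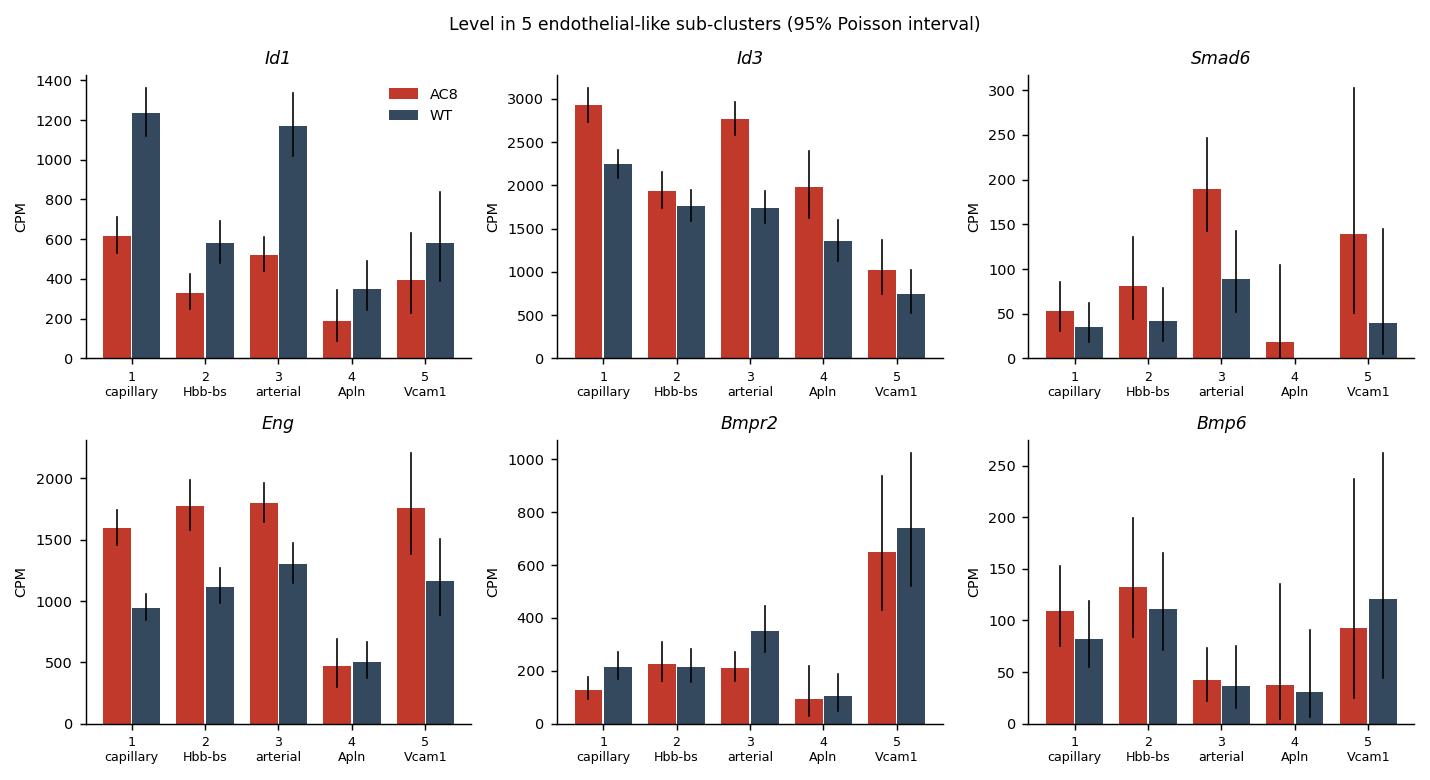
Levels in CPM (y axes, from 0) of 6 members in the 5 endothelial-like sub-clusters with enough cells (x axis, sub-cluster number with its name or a leading gene). Bars are sums over cells in AC8 (red, left) and WT (dark, right) and lines are 95% Poisson intervals. Id1 is lower in AC8 in all 5 sub-clusters, while Smad6 is highest in the arterial-like one, at 189 CPM in AC8 and 89.2 CPM in WT.

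Across the 20 sums of 10 classes and 2 libraries, the genes most similar to Id1 by Pearson's r of log2 levels were Myct1 (0.91), Kctd12b (0.91) and Pdgfd (0.90). For Eng they were Abcg2 (0.96), Slc9a3r2 (0.94) and Cyb5r3 (0.93), and for Smad6 Eml1 (0.94), Pcsk5 (0.93) and Ebf3 (0.93). The genes closest to Bmp4 included Kazald1 (0.98) and Sulf1 (0.97), and Bmp6 was closest to Cdkn1c (0.93), Mecom (0.91) and Jam2 (0.90), and Id3 to Rras (0.93), Phf11d (0.89) and Scamp1 (0.87). For Id2 they were Nfkbia, H2az1 and Sema4a, for Smad7 Slc38a2, Gimap4 and Pced1b, for Bmpr2 Csnk1e, Dync1h1 and Gkap1, and for Acvrl1 App, Smim10l1 and Hsd3b7. These values describe shared patterns over classes, and the 20 sums share libraries and depth.

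Other genes of the pathway were taken from lists, and their counts are read against the shares of all genes past 1.5-fold in either direction, 9.81% in endothelial-like, 3.68% in fibroblast-like, 12.4% in macrophage-like and 21.1% in B cell-like cells. Of 16 further BMP target genes, 0 of 10 tested in endothelial-like, 0 of 12 in fibroblast-like and 0 of 4 in macrophage-like cells were called in either direction, with median log2 ratios of 0.18, 0.01 and -0.08. In B cell-like cells 1 of 4 was called, Cited2, which was higher at 97.3 CPM in AC8 and 27.4 CPM in WT, from 37 and 4 UMIs, and the median was 0.31. Klf2, a flow-induced transcription factor on that list, stood at 5049.5 CPM in AC8 and 4218 CPM in WT endothelial-like cells, and Hey1, a Notch and BMP target, at 209 CPM in AC8 and 183 CPM in WT. Of 11 receptors and co-receptors beyond the members, 0 of 6 tested were called in endothelial-like cells, and 1 of 10, the activin receptor gene Acvr2a, was lower in fibroblast-like cells, from 22 UMIs in AC8 and 66 in WT. None of the 4 signal-transducing Smads tested in endothelial-like cells was called, while Smad3 was lower in macrophage-like cells, at 6.86 CPM in AC8 and 18.5 CPM in WT.

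Among further ligands Bmp2 was lower in AC8 in both classes where it could be compared. It stood at 25.4 CPM in AC8 and 44.99 CPM in WT fibroblast-like cells, a ratio of 0.564 (0.444 to 0.715), and at 42.7 CPM in AC8 and 76.1 CPM in WT macrophage-like cells, a ratio of 0.561 (0.426 to 0.741). The divergent ligand gene Gdf15 was lower in endothelial-like cells, from 15 UMIs in AC8 and 33 in WT. Of 13 antagonists and modulators tested in fibroblast-like cells, the activin-binding gene Fstl3 was higher, at 81.6 CPM in AC8 and 50.9 CPM in WT, and Skil, a repressor of Smads, was lower, at 72.8 CPM in AC8 and 137 CPM in WT. In endothelial-like cells Twsg1, from 11 UMIs in AC8 and 22 in WT, was lower among 9 tested. Of the 3 E protein genes that Id proteins bind, Tcf3 was higher in endothelial-like cells, at 136 CPM in AC8 and 84.2 CPM in WT, a ratio of 1.62 (1.21 to 2.18), while Tcf4 stood at 844 CPM in AC8 and 1023 CPM in WT. Of 11 TGF-beta targets tested in endothelial-like cells, Tgfb2 and the fibroblast gene Col1a1 were called higher and Ccn2 lower, and of 13 in fibroblast-like cells Postn, a matrix protein of activated fibroblasts, was higher, at 365 CPM in AC8 and 198 CPM in WT.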

How the data were processed

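The deposited matrices, 1 for each library, hold counts, that is UMIs per gene and cell as whole numbers. The authors made them with Cell Ranger per the labels' protocols and on mm10 per the submitters' processing notes; no version is stated there. The barcode lists hold running numbers, so cell barcodes common to both libraries could not be counted.

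A cell entered with 1000 or more UMIs, 500 or more genes and no more than 10% mitochondrial UMIs, which removed 23.1% of AC8 and 35.6% of WT cells for low UMIs or genes. Within each library, cells nearest to simulated doublets were dropped at 0.8% per 1000 cells (145 AC8 and 173 WT cells). Log-normalized values (10000 UMIs per cell), 2000 variable genes, 30 principal components and 15 neighbours gave Leiden clusters at resolution 1, with both libraries together and no integration. Clusters were named after the marker list with the highest score, given 3 detected markers, and left unnamed where another lineage came within 0.75 of that score or led the 10 top genes. This rule was set after the clusters were seen. The tools were Python 3.11.15 with leidenalg 0.10.2, igraph 0.11.9, scikit-learn 1.9.0, pandas 2.3.3, numpy 2.4.6, scipy 1.17.1 and matplotlib 3.10.9.

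UMIs were summed over the cells of a class in each library and expressed as CPM. Ratios were called in classes of 100 or more cells per library, and levels are given from 20 cells. Intervals are Poisson for levels, binomial for ratios and Clopper-Pearson for shares; a count of 0 allows up to 3 counts. The ratio steps were run on simulated Poisson counts, which check the calculation only and hold no variation among cells, mice or preparations. The named genes are the 10 members, the 3 genes most similar to each by r of log2(CPM + 10) among genes with 100 or more UMIs, and pathway genes called or at 100 CPM or more; exceptions are named as such, and 1 similar gene is not reported here. The members and lists were chosen with earlier results of these data known. Sub-clusters, cells without Fos and classes without a cluster were alternatives added after seeing the data. Promoter windows came from RefSeq on GRCm38.p6 and gene positions from GENCODE vM21 by symbol. A planned comparison of Id protein sequences was not run.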

Additional observations from a re-analysis of the deposited data

Results flagged for a closer look

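Id2 was the one member whose ratio had a counting interval above 1 in one class and below 1 in another. It stood at 237 CPM in AC8 and 200.2 CPM in WT macrophage-like cells, a ratio of 1.18, and at 73.7 CPM in AC8 and 93.4 CPM in WT fibroblast-like cells, a ratio of 0.789. The log2 ratios of the 2 classes, with 10 CPM added, differed by 0.54. With 1 library per genotype this difference between classes was not tested.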

How the results depend on the processing

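Of 371 values recomputed under other settings, 340 stayed within the counting error, 29 moved and 2 reversed. A change of sign counted as reversed only for pairs called in the main setting. Bmpr2 in cells without Fos, given above, changed sign without being counted so. On the log2 scale with 10 CPM added, Eng in endothelial-like cells (0.60) was -0.11 in sub-cluster 4 alone, 0.75 in sub-cluster 1, 0.46 in sub-cluster 3, and 0.43 with 2000 UMIs and 1000 genes per cell, where its call ended. Id3 in macrophage-like cells (0.72) was -0.12 without the S100a8 cluster, 0.98 with cells weighted equally and 0.94 without the cluster led by Spp1. Id1 in endothelial-like cells (-0.92) was -1.15 in sub-cluster 3 and -0.55 in sub-cluster 5, and Id1 in macrophage-like cells (-0.94) lost its call with cells weighted equally (-0.58) or thinned to 1000 UMIs (-0.27). Smad6 ranged from 0.66 to 1.30 in endothelial-like and from 0.60 to 0.92 in fibroblast-like cells. For the counts of pairs that follow, the share of all genes was not recomputed under the other settings, and nothing is read from them. The setting without Fos left out macrophage-like cells, with 3 in AC8 and 12 in WT. Of 28 member and class pairs with enough UMIs in the main setting, 4 were higher in AC8, against 2 in cells without Fos and 0 at 2-fold. Lower in AC8 were 2, against 4 with a pseudocount of 1 CPM or with 2000 UMIs per cell, 1 with equal weights, thinning or at least 100 summed UMIs, 6 with no minimum of summed UMIs and 0 at 2-fold. The highest class of Id2, Id3 and Smad7 changed under some cell filters, doublet, resolution or thinning settings, and that of Bmpr2 and Acvrl1 in WT with thinning. The causes were not tested. No paired analysis was possible because each genotype has 1 library. The number of UMIs limits Smad6, Bmp4 and Bmp6, and the single libraries limit every comparison.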
